A study of Mus musculus with 16 samples.

Results

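The array carried probes for stretches of the mouse genome between annotated genes, described in the files as lincRNA (long intergenic noncoding RNA) and named only by chromosome, start, end and strand. Such an interval is a place where a transcript was thought to be made, not a gene with a known product. Probes of 4424 autosomal pairs of an interval and a strand were on the array, and 3367 of them (76.1%) are described here. They were chosen by a readout of these arrays, since at least 1 probe of each had to be well above background in the Cy5 channel on 3 or more of the 16 arrays. That flag is a detection call of the scanner software. A short stretch of chromosome 16 and the sex chromosomes were left out. The intervals are 3367 of 34797 features on the array when genes and intervals are counted together.

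RNA came from splenic B cells of AM14 mice, whose B cells carry a transgenic antigen receptor that binds IgG as a self antigen. The 4 genotypes were WT, Tlr7-/- (Tlr7 KO), Tlr9-/- (Tlr9 KO) and Tlr7/9-/- (the double knockout, DKO). TLR7 and TLR9 are endosomal receptors for RNA and DNA. Cells were taken untreated at 0 h or after 6, 24 or 42 h with PL2-3, a monoclonal autoantibody that binds chromatin and carries it to the B cell receptor. Each genotype and time had 1 array, with the sample in Cy5. The Cy3 channel held a pool of RNA from unstimulated AM14 B cells of the 4 genotypes. Values are log2 of Cy5 over Cy3, so 0 is the level of the pool. The numbers of mice, their age and sex, how B cells were purified, and the dose of PL2-3 are not stated in the labels.

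Long noncoding RNAs are made by the same polymerase as messenger RNAs, and many are spliced and given a poly(A) tail. Some host small RNAs in their introns, as the snoRNA host genes and the hosts of microRNA clusters do, and the spliced remainder is often short-lived. Others, such as Malat1 and Neat1, stay in the nucleus. Transcripts that arise beside or against a gene are commonly degraded by the nuclear RNA exosome. In B cells, the cluster made from Mir17hg supports proliferation and survival, and the locus Pvt1 lies beside Myc.

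The results below turn on a small set of loci, and the 60-base probes of 9 interval and strand pairs are shown because they are the material that was measured there. Each probe is written 5′ to 3′ in the sense of the strand it reads, with its mm9 position from the files, and no base is singled out by capitals. The pairs cover an interval on the strand of Mir17hg and one against it, and both strands of the intervals that hold 1110038B12Rik and Gas5. They also cover a rising interval that holds no named gene probe, and the falling intervals near the probes of 5830408C22Rik and Malat1.
chr14:115445828-115445887, F, strand of Mir17hg: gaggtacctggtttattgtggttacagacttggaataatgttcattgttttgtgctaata
chr14:115441977-115442036, R, against Mir17hg: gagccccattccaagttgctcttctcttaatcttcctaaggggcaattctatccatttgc
chr17:35088024-35088083, F, against 1110038B12Rik: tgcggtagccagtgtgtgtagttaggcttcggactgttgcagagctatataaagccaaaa
chr17:35089312-35089371, R, strand of 1110038B12Rik: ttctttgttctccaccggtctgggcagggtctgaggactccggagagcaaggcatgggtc
chr1:162967716-162967775, F, strand of Gas5: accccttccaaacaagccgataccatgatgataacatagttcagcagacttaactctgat
chr1:162965982-162966041, R, against Gas5: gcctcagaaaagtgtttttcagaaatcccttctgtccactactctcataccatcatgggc
chr11:6428407-6428466, F, no named gene within: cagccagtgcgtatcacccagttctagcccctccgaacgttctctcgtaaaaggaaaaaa
chr8:26214064-26214123, R, near 5830408C22Rik: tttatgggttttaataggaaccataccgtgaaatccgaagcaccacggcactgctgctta
chr19:5802130-5802189, R, near Malat1: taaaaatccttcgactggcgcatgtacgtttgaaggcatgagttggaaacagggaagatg

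The intervals were spread over both strands, 1698 on the forward (F) and 1669 on the reverse (R) strand, and at 754 of 2613 positions both strands had passed. Their lengths ran from 66 to 538251 bases with a median of 11176, and 637 were at most 1000 bases long. Many overlap: 1415 shared ground with another interval of the same strand, and merging left 2537 separate loci, so counts of intervals are not counts of independent transcripts. Of all 15591 autosomal interval probes, detected or not, 74 had a sequence that also stood on the array under another name. A probe of a named gene lay inside 403 intervals (12%) on the same strand, of a protein-coding gene in 173 and of an lncRNA gene in 200. Another 243 held a named gene only on the other strand, and 2721 held none. Gene bodies were known here only by the positions of the array's own gene probes, so an interval without one is not shown to lie outside a gene.

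Fewer interval probes than other probes were detected. Of 15591 interval probes, 48.6% passed the same 3-array detection, against 64.4% of the other probes. The brightest probe stands for each interval below, and for 955 intervals it was well above background on all 16 arrays. At the other end 239 intervals had their best probe detected on exactly 3 arrays, while 327 pairs missed by 1 array, 412 were seen on 1 array and 318 on none. Just inside the threshold, chr16:29804864-29815614_F reached a Cy5 processed signal of 1390, chr4:119405156-119461821_F reached 698 and chr8:18903599-18904143_F reached 556. Just outside it, chr13:98267049-98267604_F reached 11400 though detected on only 2 arrays, chr7:37480456-37481372_F reached 822 and chr17:95255725-95272425_F reached 800. The median GC content was 45% in the detected probes and 43.3% in the others, and the motif AATAAA, a polyadenylation signal, searched on the probe's own strand, stood in 3.89% and 3.94% of them.

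Facts of the arrays bear on every count. The share of the 3367 intervals well above background was 37.1% on the Tlr9 KO 0 h array and lay between 56.1% and 90.1% on the other 15. WT and Tlr7 KO RNA lay on 1 slide, and Tlr9 KO and DKO RNA on the other, so TLR9 and the slide cannot be told apart. Every culture received the antibody, so an effect of culture alone cannot be told apart from one of PL2-3. The Tlr7 probe lay between -0.73 and 0.41 on the 8 arrays of cells lacking the gene and between 0.32 and 1.71 on the 8 others. The Tlr9 probe lay between -1.14 and 0.04 in cells lacking Tlr9 and between -0.84 and -0.03 in the others, so it did not check that label. Genes that define B cells were all well above background on all 16 arrays (10 of 10), and 9 of them fell at 6 h. In bulk RNA, fewer cells of a type and less RNA per cell cannot be told apart.

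At 6 h in WT, Tlr7 KO and Tlr9 KO cells the intervals that rose most included those at the microRNA host gene Mir17hg, on both strands, and one against the snoRNA host locus 1110038B12Rik. Those that fell most included an interval on chromosome 17 and intervals beside the interferon-inducible genes Ifi207 and Samd9l. Of 3150 intervals tested, 416 rose and 467 fell (limma, adjusted p under 0.05), or 28% in all. Over all 22503 features, genes included, 46.9% were called, 22.9% higher and 23.9% lower. Among the 955 detected on all 16 arrays 52.3% were called, 178 higher and 321 lower. All features include dim ones, so the 52.3% is not to be set against the 46.9%. With Cy5 detection required on every array of the comparison, 54.2% of 961 intervals and 66.4% of 12376 features were called. Over the 3150 intervals the median difference was 0.00, and over all 22503 features it was -0.003. Median centring of the arrays in place of loess moved the median of all features to 0.225 and left 79.7% of the called intervals higher, against 47.1% with loess. Leaving out WT left 528 calls at 6 h, 559 at 24 h and 300 at 42 h, and leaving out Tlr7 KO left 523, 590 and 250, against 883, 947 and 605 with all 3 genotypes.

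**Figure D1:**
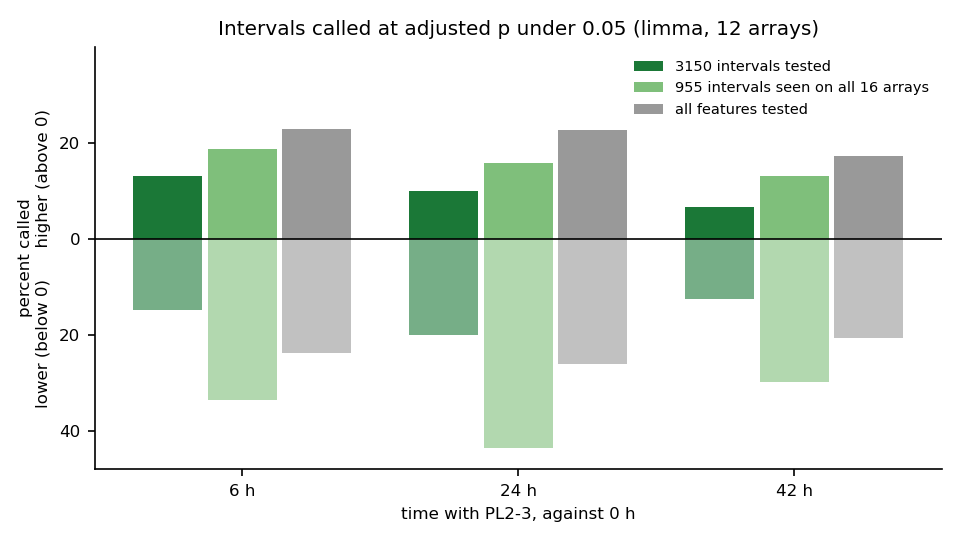
Percent of intervals called higher (above 0) and lower (below 0) at each time against 0 h, by limma on the 12 arrays of WT, Tlr7 KO and Tlr9 KO, for the 3150 intervals tested, the 955 detected on all 16 arrays and all features tested. The intervals as a whole had 28% called at 6 h against 46.9% of all features, and of the 955 detected everywhere 178 were higher and 321 lower. All features include dim ones. With Cy5 detection required on every array, 54.2% of 961 intervals and 66.4% of 12376 features were called at 6 h (not drawn).

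Mir17hg is the host gene of a microRNA cluster that MYC induces. The interval chr14:115443612-115445950_F overlaps its probe. In WT it stood at 0.34, 3.58, 2.06 and 1.20 at 0, 6, 24 and 42 h, in Tlr7 KO at 0.08, 3.71, 1.93 and 0.99, in Tlr9 KO at -0.94, 3.55, 2.35 and 1.27, and in DKO at 0.22, 3.22, 1.07 and 1.55. All 4 arrays at 6 h lay above every other array, and the Tlr9 KO 0 h array was the lowest. The rise at 6 h was 3.78 ± 0.27 (SE, n = 3 genotypes, limma adjusted p = 3.88e-06), and all 3 of its probes rose. The Mir17hg gene probe itself rose by 3.43 ± 0.15.

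The strand against Mir17hg rose too. The interval chr14:115423660-115463160_R stood in WT at 0.02, 2.95, 1.58 and 0.42, in Tlr7 KO at 0.21, 2.82, 1.65 and 0.49, in Tlr9 KO at -0.54, 2.56, 1.36 and 0.58, and in DKO at -0.18, 2.64, 0.40 and 0.72 at 0, 6, 24 and 42 h. Again the 4 arrays at 6 h were the highest. The rise was 2.88 ± 0.15 (limma adjusted p = 6.73e-07), and of its 9 detected probes 6 rose and 1 fell, with a mean over all probes of 0.94. The probes that rose began at 18317 bases or farther into the interval, and the 3 that began between 16336 and 16583 bases had differences of 0.10, -0.35 and -0.59. The forward strand of the same interval changed at the same border, from -0.03 and -0.42 at 16398 and 16613 bases to 1.17 at 18380 and 1.11 at 22519. An interval ending before the gene, chr14:115366426-115441225_F, had a difference of 0.08 ± 0.13 (limma adjusted p = 0.665).

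One probe of that reverse-strand interval lies against a microRNA hairpin of the cluster. It is shown because its last 30 bases, in capitals, are the reverse complement of part of the Mir18 hairpin in RefSeq.
chr14:115443139-115443198, R, against Mir18: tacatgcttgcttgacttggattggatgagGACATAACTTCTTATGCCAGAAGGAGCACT
This probe rose by 1.78 at 6 h (limma adjusted p = 5.4e-05), and it was detected on 11 arrays. In all, 11 intervals held a probe that shares at least 20 bases with a hairpin on either strand. The interval chr15:85412264-85549139_F spans let-7 hairpins on its own strand, and its probe detected on 7 arrays is shown next, where capitals mark the 49 bases shared with Mirlet7c-2.
chr15:85537022-85537081, F, strand of Mirlet7c-2: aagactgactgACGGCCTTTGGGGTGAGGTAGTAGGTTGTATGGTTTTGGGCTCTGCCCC
Its difference at 6 h was -0.07 (limma adjusted p = 0.542). Probes against Mirlet7i and Mir6516 differed by -0.31 and -0.26 (limma adjusted p = 0.0359 and 0.0413). A probe on the strand of Mir8110 differed by 0.39 (limma adjusted p = 0.0115), and the probe on the strand of Mir410 had -0.19 (adjusted p = 0.227).

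The locus 1110038B12Rik, a host of small nucleolar RNAs, held the interval with the smallest adjusted p at 6 h. The interval chr17:35080914-35090009_F, against the gene, stood in WT at 0.02, 3.68, 3.16 and 2.04, in Tlr7 KO at 0.09, 3.82, 3.13 and 2.43, in Tlr9 KO at -0.26, 3.35, 2.97 and 1.88, and in DKO at -0.18, 3.30, 1.51 and 2.02 over the 4 times. Every stimulated array lay above every 0 h array. The differences were 3.67 ± 0.10 at 6 h, 3.14 ± 0.10 at 24 h and 2.17 ± 0.10 at 42 h (limma adjusted p = 3.57e-08, 1.41e-07 and 2.04e-06). On the strand of the gene, chr17:35080914-35090009_R rose by 2.51 ± 0.14 at 6 h and 2.29 ± 0.14 at 42 h, and the gene probe rose by 2.49 ± 0.10 at 6 h. Probes of this interval disagreed. The mean of all forward probes was 1.18 at 6 h, 1.0 at 24 h and 0.60 at 42 h, and that of the reverse probes 1.09 at 42 h. On the forward strand they gave 3.67 at 7110 bases and 0.15 at 8067, and 1 probe at 8278 bases fell by 0.53, which is 4.20 below the highest. Probes begun at 8277 and 8278 bases, on the reverse and the forward strand, gave -0.13 and -0.53, while those begun at 8398 and 8425 bases gave 2.51 and 1.68.

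**Figure D2:**
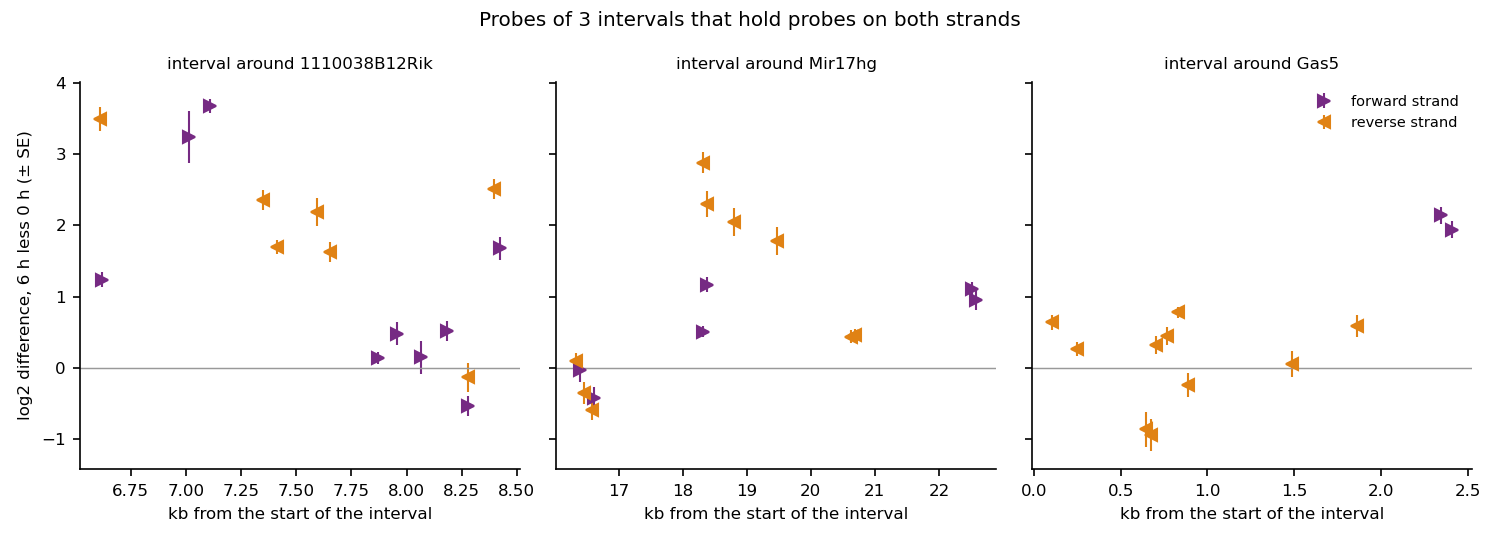
Log2 difference at 6 h against 0 h (± SE, limma, 12 arrays) of each detected probe, by its distance in kb from the start of the interval, for the intervals around 1110038B12Rik, Mir17hg and Gas5. At Mir17hg the probes of both strands up to 16613 bases lie between -0.59 and 0.10 and those from 18317 bases on are positive, and at 1110038B12Rik neighbouring probes differ by several log2 units.

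Other rises at 6 h lay away from the array's named gene probes, which does not place them outside a gene. The interval chr11:6421951-6429173_F, whose nearest same-strand gene probe is 68216 bases away at Ccm2, stood in WT at 0.03, 3.48, 2.27 and 0.50, in Tlr7 KO at 0.00, 3.29, 2.22 and 0.91, in Tlr9 KO at -0.04, 2.98, 1.98 and 1.5, and in DKO at 0.03, 3.13, 0.94 and 1.45. The 0 h arrays all lay between -0.04 and 0.03. It rose by 3.25 ± 0.23 at 6 h (limma adjusted p = 3.81e-06), and 1 of 9 probes was still called at 42 h. All 9 probes rose at 6 h, but this one rose most: the others rose by 0.50 to 2.28, and the mean of all probes was 1.46. On the other strand, 21793 bases away, the gene probe of Myo1g, a myosin of blood cells, fell by 1.51 ± 0.21. Other rises lasted longer: chr17:48068261-48087905_F rose by 2.95 ± 0.30 at 6 h and was still 2.60 ± 0.30 above 0 h at 42 h, and chr19:56820850-56837925_R gave 2.86 ± 0.27 and 2.69 ± 0.27.

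Among the falls at 6 h, chr17:6426800-6528950_F stood in WT at 0.46, -3.60, -4.04 and -3.17, in Tlr7 KO at -0.43, -3.80, -4.06 and -3.27, in Tlr9 KO at -0.45, -3.53, -3.84 and -3.52, and in DKO at 0.22, -3.86, -3.52 and -3.77. All stimulated arrays lay below all 0 h arrays at every time. It fell by 3.50 ± 0.20 at 6 h, and it fell by 3.84 ± 0.20 at 24 h (limma adjusted p = 1.02e-06 and 1.26e-06). This value is from the probe that begins 95101 bases into the interval. Its other probe, at 94214 bases, rose by 1.68 ± 0.16, a gap of 5.18, and the mean of both was -0.91. The pseudogene Tmem181b-ps has a probe inside it on the other strand.

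The interval chr8:26212577-26218527_R fell with all 5 of its probes. It stood in WT at -0.29, -3.54, -3.23 and -2.27, in Tlr7 KO at 0.06, -3.25, -2.99 and -2.37, in Tlr9 KO at 0.04, -3.06, -3.14 and -2.92, and in DKO at -0.27, -3.00, -3.01 and -3.29. DKO at 42 h was the lowest array of that time. It fell by 3.22 ± 0.18 at 6 h and by 2.46 ± 0.18 at 42 h (limma adjusted p = 1.1e-06 and 1.62e-05). The gene 5830408C22Rik, 5793 bases away on the other strand, fell by 1.85 ± 0.16 at 6 h. The interval chr16:90038086-90127636_F fell by 3.48 ± 0.13 at 6 h and by 1.38 ± 0.13 at 42 h, with no named gene probe within 50 kb on its strand. Of its 3 tested probes 2 fell, the third, at 81443 bases, was at 0.33 ± 0.24 at 6 h (adjusted p = 0.297), and the mean of all probes was -1.07.

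Among the largest falls at 6 h were also overlapping intervals at Ifi207 and an interval near Samd9l. The interval chr1:175654606-175672031_R fell by 2.92 ± 0.22 at 6 h and by 0.70 ± 0.22 at 42 h (limma adjusted p = 5.04e-06 and 0.0307). It holds a probe of Ifi207, a member of the interferon-inducible HIN-200 family. That gene probe had a difference of 0.00 ± 0.13 (adjusted p = 0.986), 1384 bases from the interval's probe. Within the interval the probes at 440 and 500 bases gave 0.77 and -2.92 at 6 h. The mean of all its probes was -1.52. The overlapping chr1:175660642-175671878_R fell by 2.63 ± 0.16, with a mean of -0.96. The interval chr6:3333825-3349525_R, 26789 bases from Samd9l, fell by 2.70 ± 0.22. Only 1 of the 3 arrays at 6 h detected it, so the size of its fall is less sure. The Samd9l probe fell by 5.02 ± 0.43.

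At 24 h an interval against Traf5 was among those that rose most, and intervals at the nuclear RNA Malat1, at Mirt1 and at the zinc finger gene Zfp652 fell. Of 3150 intervals 315 rose and 632 fell, or 30.1%, against 48.7% of all features (22.7% higher and 26% lower). Among the 955 detected everywhere 152 rose and 417 fell. With Cy5 detection required on every array, 61.2% of 961 intervals and 68.4% of 12376 features were called. Of the intervals called among the 3150, 33.3% were higher, and of the other called features, with or without a gene name, 47.8%. With median centring the called intervals were 64.9% higher, with the median of all features at 0.227.

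The interval chr1:193815525-193825775_F holds on its other strand a probe of Traf5, an adaptor of TNF receptors, 4170 bases away. It stood in WT at -0.32, 2.06, 3.04 and 3.51, in Tlr7 KO at -0.03, 2.19, 2.97 and 3.68, in Tlr9 KO at -0.34, 1.97, 3.41 and 2.09, and in DKO at 0.02, 1.86, 1.93 and 3.09. In WT, Tlr7 KO and DKO it was highest at 42 h, and in Tlr9 KO at 24 h. Its rise was 2.31 ± 0.32 at 6 h, 3.38 ± 0.32 at 24 h and 3.32 ± 0.32 at 42 h (limma adjusted p = 0.000244, 2.68e-05 and 5.91e-05), from a single probe. Traf5 itself fell, by 2.25 ± 0.19 at 6 h and 2.18 ± 0.19 at 24 h.

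Other rises at 24 h were chr17:32213027-32228368_R, which holds a probe of the pseudogene Pdxk-ps, at 2.76 ± 0.16, and chr14:22267795-22319045_F at 2.42 ± 0.09. Pdxk-ps rose by 1.38 ± 0.19 and, 19430 bases away on the other strand, the ribosome biogenesis gene Rrp1b rose by 2.56 ± 0.23. In chr14:22267795-22319045_F 5 of 8 detected probes rose and 1 fell. Its brightest probe has no mm9 position. Its tested probes with a position, at 41179, 49957 and 50025 bases, were at 0.02, -1.08 and 0.11 at 24 h. The rise therefore rests on probes whose place in the interval is not known. The means of all probes were 1.71 for chr17:32213027-32228368_R and 1.02 for chr14:22267795-22319045_F.

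The interval chr19:53517903-53540753_R lies on the strand of Mirt1, a noncoding RNA gene. It stood in WT at 0.07, -2.0, -3.70 and -2.55, in Tlr7 KO at -0.25, -2.29, -3.57 and -2.63, in Tlr9 KO at -0.28, -1.93, -3.39 and -3.63, and in DKO at -0.87, -1.68, -3.61 and -3.88. The 24 h arrays of all 4 genotypes lay between -3.70 and -3.39. All 10 probes fell, and the brightest fell by 1.92 ± 0.25 at 6 h, 3.40 ± 0.25 at 24 h and 2.78 ± 0.25 at 42 h (limma adjusted p = 0.000156, 6.08e-06 and 4.06e-05). Mirt1 fell by 3.99 ± 0.14 at 24 h. Another interval, chr11:95627874-95640824_F, overlaps a probe of the zinc finger gene Zfp652. It fell by 2.97 ± 0.14 at 24 h, with a mean of -1.74 over all probes, and the gene by 2.95 ± 0.13. The interval chr9:13349094-13352732_F fell by 2.82 ± 0.16 with all 3 probes, 71599 bases from the Notch coactivator Maml2.

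Intervals at Malat1, an abundant nuclear RNA, fell on its strand. Only the position of the gene probe was known, so whether these intervals lie within the Malat1 transcript was not tested. The interval chr19:5801802-5802597_R, 6358 bases from the Malat1 probe, stood in WT at 0.44, -2.15, -3.44 and -2.40, in Tlr7 KO at 0.21, -2.50, -3.36 and -2.90, in Tlr9 KO at -0.09, -1.92, -2.50 and -1.96, and in DKO at -0.13, -1.49, -1.73 and -1.06. At each stimulated time the DKO array was the highest of the 4, and the arrays of WT and Tlr7 KO, on the other slide, were the lowest. It fell by 3.29 ± 0.24 at 24 h (limma adjusted p = 6.56e-06). The interval chr19:5798135-5800557_R fell by 2.60 ± 0.25, chr19:5771425-5848475_R, which spans both, by 1.74 ± 0.18 and the Malat1 probe by 1.81 ± 0.13. The probe of chr19:5771425-5848475_R overlaps the Malat1 probe, so both read the same stretch. On the opposite strand chr19:5795690-5797464_F fell by 1.03 ± 0.10 at 24 h. Its fall at 6 h, by 0.56 ± 0.10, was at -0.02 with median centring (adjusted p = 0.944). Near Neat1, the scaffold of nuclear paraspeckles, chr19:5834117-5835940_R had -0.36 ± 0.19 at 6 h (adjusted p = 0.157) and fell by 0.81 ± 0.19 at 24 h. The loci around Malat1 and Neat1, and those of Gas5, Pvt1, Mir17hg, Dleu2 and the Snhg genes, were singled out after their values were seen, apart from the intervals named among the largest changes.

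At 42 h fewer intervals were called against 0 h. Of 3150, 208 rose and 397 fell, or 19.2%, against 38% of all features (17.3% higher and 20.7% lower). Among the 955 detected everywhere 126 rose and 286 fell. With Cy5 detection required on every array, 45.4% of 961 intervals and 58.2% of 12376 features were called. With median centring 44.5% of the called intervals were higher, against 34.4%. The named rises at this time not yet given were chr14:55433382-55452757_R, at 2.52 ± 0.14 with both probes, and chr4:32294119-32294941_F, at 2.24 ± 0.33 from 1 probe. The former stood between 1.96 and 2.68 on the 9 stimulated arrays of WT, Tlr7 KO and Tlr9 KO. The latter was at 2.55 in WT, 2.62 in Tlr7 KO, 1.28 in Tlr9 KO and 1.59 in DKO at 42 h, so the slide of WT and Tlr7 KO stood above the other. The 6, 24 and 42 h comparisons share their 0 h arrays and are not independent.

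**Figure D3:**
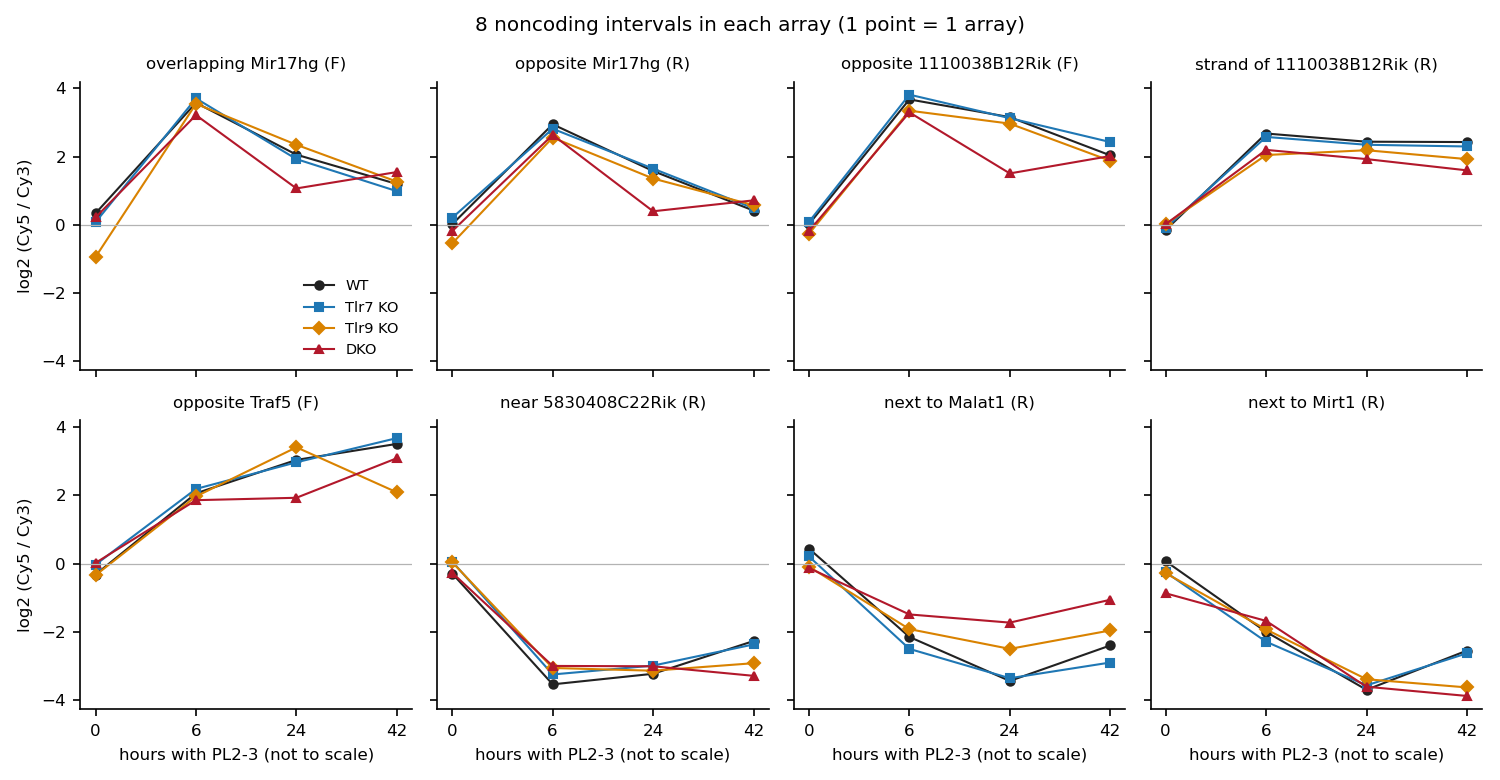
Log2 of Cy5 over Cy3 on each of the 16 arrays, by hours with PL2-3 and genotype, for 8 interval and strand pairs. Intervals at Mir17hg are highest at 6 h on both strands. The interval against Traf5 lies between 3.09 and 3.68 at 42 h in WT, Tlr7 KO and DKO and at 2.09 in Tlr9 KO. The panel next to Malat1 shows an interval probe 6358 bases from the Malat1 probe. There the DKO arrays lie above those of the other genotypes at 6, 24 and 42 h.

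At Gas5, a snoRNA host whose RNA accumulates when growth stops, the F interval chr1:162965309-162970704_F stood in WT at -0.16, 2.0, 2.01 and 0.99, in Tlr7 KO at 0.52, 2.21, 2.04 and 1.5, in Tlr9 KO at 0.03, 2.01, 1.89 and 1.13, and in DKO at -0.06, 1.97, 1.43 and 1.53. The stimulated arrays all lay above the 0 h arrays. It rose by 1.94 ± 0.12 at 6 h (limma adjusted p = 1.7e-06), and Gas5 by 2.08 ± 0.09. Of 3 probes that lie in the RefSeq promoter window of Gas5 on the same strand, in chr1:162965001-162966376_F, the brightest fell by 0.49 ± 0.10 (adjusted p = 0.00334), and its difference was -0.18 with median centring (adjusted p = 0.406) and -0.45 without WT (adjusted p = 0.0606). The other two were at -0.27 and -0.08 (adjusted p = 0.0912 and 0.57). At Snhg17, chr2:158169020-158191295_R rose by 1.56 ± 0.11 at 6 h with all 10 probes. Not every host rose: at Snhg18, chr15:32167516-32174427_R fell by 1.23 ± 0.13 with all 5 probes and was at -0.11 ± 0.13 by 42 h (adjusted p = 0.569). At Dleu2, a host of microRNAs, chr14:62254361-62301162_R fell by 0.87 ± 0.16 at 6 h, and the gene by 1.12 ± 0.12. The shorter intervals chr14:62280837-62283960_R and chr14:62294849-62301165_R fell by 1.30 ± 0.29 and 1.14 ± 0.34. Neither was called without WT (adjusted p = 0.0668 and 0.249), without Tlr7 KO (0.078 and 0.223) or with median centring (0.0581 and 0.104). The interval chr14:62263564-62307496_R went the other way, at 0.11 ± 0.25 at 6 h (adjusted p = 0.754), and rose by 1.1 ± 0.25 at 24 h and 1.29 ± 0.25 at 42 h (adjusted p = 0.00507 and 0.00308). Another of its probes, at 37537 bases, fell by 1.13 ± 0.25 at 24 h.

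At Pvt1 the brightest probe was not typical. In chr15:61984389-62102500_F it had -0.27 ± 0.11 at 6 h (adjusted p = 0.0688), while the other 6 probes all rose, by up to 2.92 ± 0.31. The mean over the probes rose by 1.12 ± 0.12. Shorter intervals of the locus went the same way as those 6 probes. The interval chr15:62090565-62091770_F rose by 2.61 ± 0.23, and chr15:62046023-62082530_F by 2.13 ± 0.15. The Pvt1 gene probe rose by 3.06 ± 0.14 at 6 h and was at 1.84 ± 0.14 at 24 h.

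Probes of the same interval did not always move together. At 6 h, 1776 intervals had at least 2 detected probes that were tested, and in 481 at least 2 probes were called. In 446 of these the called probes went one way, and in 35 they opposed each other. The opposed counts were 44 of 494 at 24 h and 21 of 298 at 42 h. With both strands tested at 675 positions, the strands rose together at 28, fell together at 34 and went opposite ways at 19 at 6 h, while 1 strand alone was called at 256. The correlation between the strands' differences was 0.262 over the 675 positions, which share arrays and neighbouring sequence. The widest opposition was at chr14:33923944-34003394 at 24 h, where F rose by 1.93 ± 0.24 and R fell by 1.97 ± 0.16. The mean of all 9 F probes was 0.06 there (adjusted p = 0.55), so the rise rests on 1 of the 4 detected probes. At Gas5 F rose by 1.94 and R, chr1:162965309-162970704_R, fell by 0.94 ± 0.23 at 6 h. There 4 of 10 R probes rose and 2 fell, their mean was 0.11 (adjusted p = 0.438), and median centring left the brightest at -0.48 (adjusted p = 0.0709). At chr4:101010948-101032148 F rose by 1.26 ± 0.42 and R fell by 1.84 ± 0.16 at 6 h. An F probe of this interval lies against Mir101a, but it was detected on 0 arrays. The F value is from another probe, at 8054 bases, and the F probe at 17863 bases was at -0.18 ± 0.09. The means of all probes were 0.15 on F (adjusted p = 0.272) and -0.71 on R. The F rise lost its call when the Tlr9 KO 0 h array, at -1.25, was left out (0.62, adjusted p = 0.0657), and it was 1.59 without WT (adjusted p = 0.06) and 1.5 without Tlr7 KO (adjusted p = 0.0953).

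The differences of intervals were set against those of the nearest named gene, and their correlation on the same strand was lower at greater distances. Where the probe of the gene overlapped the interval's probe, the 50 pairs of differences at 6 h had a Pearson correlation of 0.905 across pairs. Such probes read overlapping bases of the same strand, so this value does not compare an interval with a neighbouring gene. The correlation was 0.525 over 169 pairs up to 2000 bases apart and 0.484 over 399 pairs up to 10000 bases. Farther apart it was 0.179 over 815 pairs up to 50000 bases and 0.0497 over 988 pairs beyond that. For genes on the other strand it was 0.29 over 130 pairs up to 2000 bases apart and 0.209 over 281 pairs up to 10000 bases. At 24 h the same-strand values were 0.897, 0.504, 0.368, 0.18 and 0.0868. These pairs share arrays, and neighbouring intervals share genes, so the values are a description. Where both the interval and a same-strand gene up to 2000 bases away were called at 6 h, 43 of 44 went the same way, against 77 of 152 beyond 50000 bases. Within 10000 bases, 401 interval probes lay downstream of the gene probe and 167 upstream. Their Pearson correlations were 0.533 and 0.368 at 6 h and 0.38 and 0.465 at 24 h. By rank (Spearman) the values were 0.516 and 0.37 at 6 h and 0.393 and 0.325 at 24 h. Which side was the closer at 24 h thus depended on the measure.

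**Figure D4:**
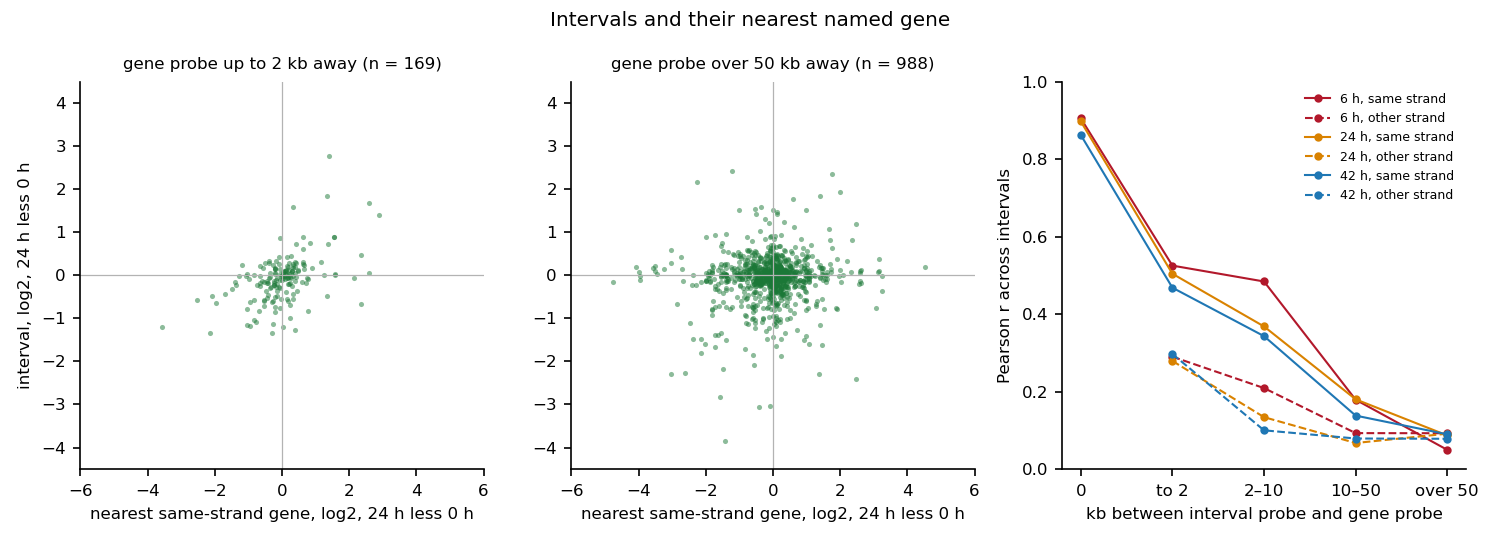
Left and middle, log2 difference at 24 h of each interval against that of its nearest named gene on the same strand, for gene probes up to 2 kb away (n = 169) and over 50 kb away (n = 988). Right, Pearson correlation across intervals by distance, for genes on the same strand (solid) and the other strand (dashed). On the same strand at 6 h it falls from 0.905, where the probes overlap and read the same stretch, to 0.0497 over 50 kb away.

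Called at 6 h were 36.6% of 383 intervals that held a named gene probe on their strand, 29.3% of 229 with a gene on the other strand only and 26.6% of 2538 with none. At 24 h the shares were 40.2%, 30.6% and 28.5%. Intervals called higher at 24 h had a median length of 17102 bases, those called lower 10688.5 and those not called 10676. At 6 h these medians were 11488.5, 12026 and 10907, and at 42 h 18225.5, 10601 and 10795. Of the intervals, 96 had a probe within a 300-base promoter window of RefSeq (build GRCm38.p6, matched by sequence), 46 on the strand of the gene and 53 on the other. The largest of these differences at 6 h were 2 probes of chr19:53517903-53540753_R against the promoter of 4833407H14Rik, which fell by 1.45 ± 0.14 and 1.37 ± 0.21 (limma adjusted p = 1.74e-05 and 0.000507). A probe of chr7:134369091-134376468_R against the promoter of Zfp553 rose by 0.79 ± 0.11 (limma adjusted p = 0.00024).

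No interval was called between genotypes over the stimulated arrays. For Tlr7 KO against WT, within a slide, limma called 0 of 3222 intervals (69 at an unadjusted p under 0.05), against 0.00435% of all features. For Tlr9 KO against WT, across slides, it called 0 (218 unadjusted), against 0.0566% of features. For DKO against Tlr9 KO, within a slide, it called 0 (155 unadjusted) against 0.0435%, and for DKO against the other 3 genotypes 0 (397 unadjusted) against 0% of features. The smallest adjusted p of an interval in that last comparison was 0.102. The response of DKO (stimulated less 0 h) less that of the other 3 gave 0 of 3296 intervals (216 unadjusted), against 0.0383% of features. In the order given, the unadjusted counts were 2.14%, 6.77%, 4.81%, 12.3% and 6.55% of the intervals tested. Over all features the unadjusted shares were 1.84%, 9.27%, 5.88%, 19.1% and 8.14%. With 1 array per genotype and time, these counts do not show that the genotypes are alike. Set only against Tlr9 KO, on the same slide, the response of DKO differed in 85 intervals of 3299, 84 of them lower, against 1.61% of all features. In 84 of the 85 the Tlr9 KO 0 h array was the lowest of the 16 arrays. On that array 83 of the 85 were above background.

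Most intervals called in the other genotypes lay on the same side of 0 h in DKO. Of the intervals called higher in the other 3 genotypes at 6 h, 399 of 416 were higher in DKO than at its own 0 h, with a median of 0.65 against 0.69. At 24 h it was 270 of 315, with a median of 0.35 against 0.64, and for falls 539 of 632, with -0.32 against -0.67. At 42 h the medians were 0.54 against 0.65 for rises and -0.53 against -0.61 for falls. For rises at 6 h, 95.9% of intervals lay on the same side in DKO, against 97.7% of all features. At 24 h the shares were 85.7% against 91.1% for rises and 85.3% against 89.5% for falls. At 42 h they were 90.9% against 96% and 92.9% against 94.4%. The medians of all features for rises at 24 h were 0.46 in DKO and 0.83 in the other 3. The intervals were picked for their change in the other 3, which favours larger values there. Of the 12 largest changes at 24 h, all 12 were smaller in DKO, with a median size of 1.81 against 3.02. At 6 h 11 of 12 and at 42 h 8 of 12 were smaller.

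**Figure D5:**
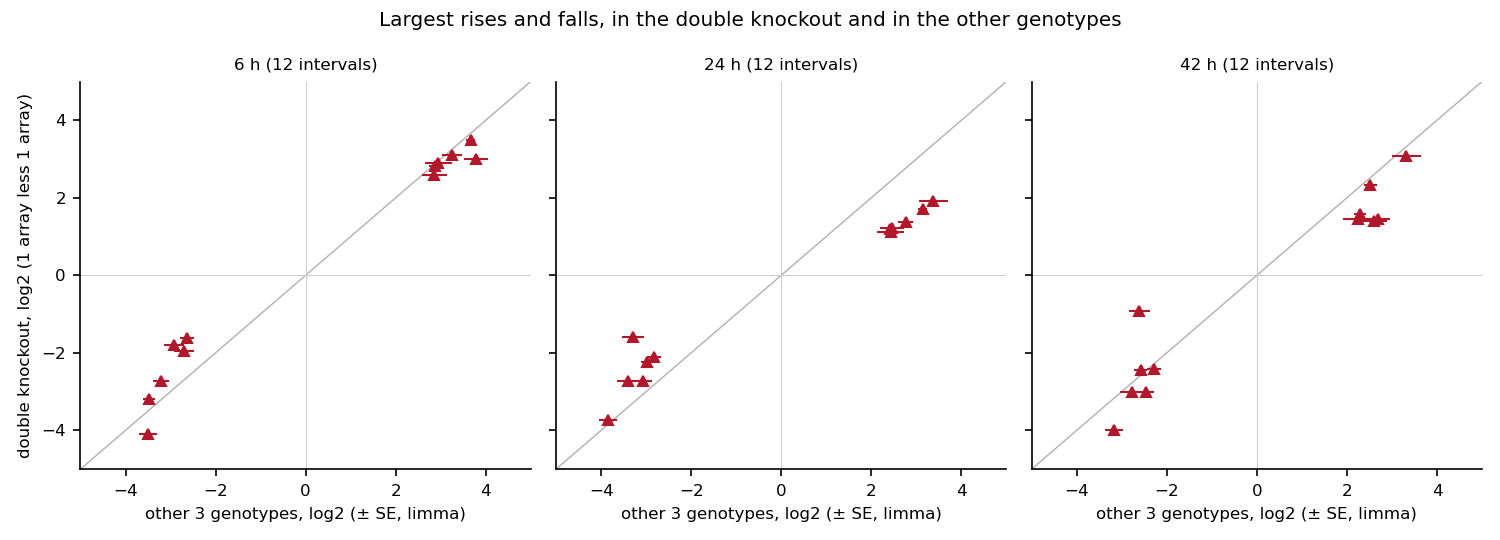
Change in the double knockout (1 stimulated array less its 0 h array) against the change in the other 3 genotypes (± SE, limma) for the 12 largest rises and falls at each time, with the line of equal change. At 24 h all 12 points lie nearer to 0 in the double knockout, with a median size of 1.81 against 3.02.

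Counted on single arrays, with no test, intervals that differed 2-fold or more from 0 h of their genotype numbered 284 in WT, 285 in Tlr7 KO, 319 in Tlr9 KO and 234 in DKO at 6 h. These are 8.61%, 8.63%, 9.67% and 7.1% of the intervals, against 20.1%, 20.3%, 19.2% and 16.6% of all features. At 24 h they were 255, 254, 350 and 102, or 7.74%, 7.7%, 10.6% and 3.09%, against 19%, 18.9%, 20.5% and 7.94%. At 42 h they were 152, 172, 248 and 137, or 4.61%, 5.21%, 7.52% and 4.15%, against 12.5%, 14.9%, 13.6% and 11.5% of features. In every genotype and at every time a smaller share of intervals than of features passed 2-fold, and DKO had its fewest at 24 h. Tlr9 KO had 217 intervals 2-fold higher and 102 lower at 6 h, where WT had 129 and 155. Its 0 h array is the dim one.

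Of 34 tested genes of nuclear RNA turnover and 3′ end processing, 19 rose and 2 fell at 6 h, 20 rose and 3 fell at 24 h, and 16 rose and 3 fell at 42 h, with a median of 0.41 at 6 h against -0.003 over all features. With median centring 28 rose and 0 fell at 6 h, with a median of 1.17 against 0.225, 29 rose and 0 fell at 24 h, and 12 rose and 1 fell at 42 h. Dis3, a ribonuclease of the nuclear exosome, rose by 1.61 ± 0.22 at 6 h and Exosc1, an exosome subunit, by 1.61 ± 0.12. Tent4a, a poly(A) polymerase of the TRAMP type, rose by 1.72 ± 0.11, and Mtrex, the exosome's helicase, by 0.68 ± 0.11. The 2 that fell at 6 h with loess were Zcchc7, by 1.21 ± 0.09, and Exosc2, another exosome subunit, by 0.65 ± 0.14. Neither was called lower at 6 h with median centring. Of the Integrator subunits, which end noncoding transcripts, Ints5 rose by 0.98 ± 0.13 and Ints9 was at -0.06 ± 0.08 (adjusted p = 0.605). Most markers of other cells fell. At 6 h 8 of 9 tested myeloid markers fell, with list means from -0.25 to 0.24 over the 0 h arrays and from -1.71 to -1.54 over the 6 h arrays. All 5 NK markers fell (-0.38 to 0.16 at 0 h, -1.45 to -1.28 at 6 h), all 5 erythroid markers fell (-0.85 to 0.54, then -2.12 to -1.09), and of 9 T cell markers 6 fell and 1 rose. With median centring the falls at 6 h were 7 of 9 myeloid, 4 of 5 NK, 1 of 5 erythroid and 4 of 9 T cell markers. None of these markers was below background on all arrays. Their part in the falls of intervals was not tested.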

How the data were processed

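Values are from 16 arrays of 2 colours. Per the file headers, Agilent Feature Extraction 10.1.1.1 read 62976 spots per array (3671 controls) on a design placed on mm9. The deposited mean foreground and median local background intensity of each colour were used here. Other deposited columns are flags (well above background, outlier), 60-base probe sequences and mm9 positions. The authors' deposited table of log10 ratios matched the log10 of Cy5 over Cy3 processed signals within 5e-04.

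Background was corrected with normexp (offset 50) and colours normalized by loess within arrays in R 4.3.3 with limma 3.58.1 and data.table (version 1.17.8). Controls and outlier spots were left out, equal probes averaged, and the brightest probe stood for each gene or interval and strand. A feature was tested when well above background in either colour on 3 or more arrays of the comparison, with at most 2 values missing. The scripts were tested on simulated data. limma (lmFit and eBayes, 2-sided, Benjamini-Hochberg over all features) fitted time with genotype as a term over 12 arrays (6 residual degrees of freedom), with the genotypes serving as replicates. Comparisons of genotypes took the 12 stimulated arrays and kept time in the model, or all 16 arrays for responses. Nothing says whether samples came from separate mice, so p-values measure only the spread between these arrays. Precision is limited by the number of arrays and by the signal over background.

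Named intervals are the 6 largest rises and falls per time past adjusted p 0.05, moved alike in all 3 genotypes and detected in Cy5 on at least 50% of the arrays, plus the widest oppositions of probes and strands. Members and lists were chosen with earlier results of these data known. Gene names came from probe accessions or symbols through RefSeq (GRCm38.p6, names only): 27235 probes by accession, 3581 by symbol, 565 by an older symbol, and 8696 other probes unnamed. Alternatives are described in the closing section.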

Additional observations from a re-analysis of the deposited data

How the results depend on the processing

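The counts of intervals called at 6, 24 and 42 h were 883, 947 and 605. They stayed within 1.5 times of these with median centring, the authors' table, no background correction, the mean of all probes, no filter on dim probes, all 4 genotypes or the slide of WT and Tlr7 KO alone (975, 1015 and 746). Similar counts did not mean the same intervals. With median centring 590, 574 and 400 of the intervals called at 6, 24 and 42 h were called again. With the mean of all probes it was 607, 631 and 380. Requiring Cy5 detection on every array tested 961 intervals and gave 521 at 6 h and 588 at 24 h. Leaving out 1 genotype gave 523 to 975 at 6 h, 559 to 1015 at 24 h and 250 to 746 at 42 h, with 528, 559 and 300 without WT, 523, 590 and 250 without Tlr7 KO and the highest values without Tlr9 KO. Without the Tlr9 KO 0 h array, an alternative chosen after seeing the data, the counts were 801, 849 and 522. The mean of all probes left 58.1% of the called intervals higher at 6 h. The 5 genotype counts were 0 under every alternative run, except 85 for the response of DKO against that of Tlr9 KO within the slide.

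Of 782 values of 46 named intervals under alternatives, 738 kept direction and call, 25 lost the call, 10 gained it and 9 turned direction. The turned values at 6 h were 0.08 and 0.18 with median centring for chr14:115423660-115463160_F and chr15:61984389-62102500_F, and -0.03 without background correction for chr14:115366426-115441225_F, which leaving out 1 genotype moved between -0.01 (Tlr7 KO) and 0.21 (Tlr9 KO). With the mean of all probes they were -0.04 for chr14:33923944-34003394_F, 0.11 for chr1:162965309-162970704_R, 0.48 for chr14:115423660-115463160_F, -0.36 for chr14:62263564-62307496_R and 1.12 for chr15:61984389-62102500_F. Beyond the smaller sets tested, the cause was not tested. Times were compared within genotypes, which were a term in each fit, and the labels give no replicate number that could pair further samples.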
